A study of Homo sapiens with 27 samples.

Results

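The cytosolic ribosomal protein genes encode the protein part of the 40S and 60S subunits of the ribosome. They were taken as the protein-coding genes whose symbol is RPL, RPS, RPLP or RPSP followed by a number and at most the letter A or X, and which are listed in all 6 deposited tables. The rule found 76 gene entries for 75 symbols among the 17536 genes listed in all 6 tables. Of the symbols, 29 name 40S proteins and 46 name 60S proteins. RPL26 has 2 entries, and the second did not pass the filter on low counts, so 75 entries were tested in every comparison. RPSA and FAU, which also encode ribosomal proteins, carry other names and are given apart.

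RNA-seq was made from T47D, SKBR3 and MDA-MB-453, which are established human breast cancer lines, 48 h after reverse transfection. In each line the cells received a pool of siRNAs against TLE3 (siTLE3), a pool against FOXA1 (siFOXA1) or a non-targeting siRNA (siNS), with 3 libraries for each of the 9 groups and 27 libraries in all. TLE3 is a Groucho-type corepressor and FOXA1 is a pioneer transcription factor of luminal breast cells, and the study asks what TLE3 controls in such cells. All libraries came from total RNA of transfected epithelial lines, each line is a single cell population, and the siRNA knock-down is transient and partial. The labels number biological replicates without saying whether these were separate cultures or days, so p-values measure the spread between these samples, which may be technical.

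Ribosomal proteins are made in near-equal numbers, and their mRNAs belong to the most abundant in dividing cells. Most of these mRNAs begin with a C followed by a run of pyrimidines, the terminal oligopyrimidine (TOP) motif, through which LARP1 and mTOR set how strongly they are translated, while MYC is known to raise their transcription. Some members have further known roles: RPL5 and RPL11 bind MDM2 together with 5S rRNA, RPS6 is the classical substrate of the S6 kinases, and RPLP0, RPLP1 and RPLP2 form the acidic stalk of the 60S subunit that recruits translation factors.

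The start sites of 7 members named in the results below are shown. Whether a run goes with a change in level was not tested. Each line gives 15 bases before and 15 from the annotated start onward, 5′ to 3′ along the gene's strand, from RefSeq on GRCh38.p14, and the capitals mark a run that begins with C and holds only C or T.
RPLP0 (chr12:120201097-120201126, minus strand): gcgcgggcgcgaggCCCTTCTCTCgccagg
RPLP1 (chr15:69452803-69452832, plus strand): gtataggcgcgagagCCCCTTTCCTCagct
RPLP2 (chr11:809952-809981, plus strand): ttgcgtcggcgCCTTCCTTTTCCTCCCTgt
RPS12 (chr6:132814554-132814583, plus strand): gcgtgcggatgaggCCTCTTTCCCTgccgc
RPS28 (chr19:8321481-8321510, plus strand): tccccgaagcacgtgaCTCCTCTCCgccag
RPL21 (chr13:27251543-27251572, plus strand): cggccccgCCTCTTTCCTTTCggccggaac
RPS4X (chrX:72277234-72277263, minus strand): gcagtctccagccccaatttctacgcgcac

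The stalk genes RPLP0, RPLP1 and RPLP2, the 40S genes RPS12 and RPS28 and the 60S gene RPL21 hold such a run, while no run stands in the window of RPS4X. The search covered the gene's strand only and asked for a C followed by at least 4 further C or T, beginning within 10 bases of a listed start. RefSeq promoters were matched for 61 of the 75 symbols, and 55 of these members (90.2%) held a run at one or more of their listed starts. Of 15843 protein-coding genes with a promoter, 6346 (40.1%) held one. The members without a run in this window were RPL15, RPL17, RPL27, RPL6, RPS29 and RPS4X, and no run says only that these letters are not there.

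The libraries held 15968223 to 26208135 counted reads. TLE3 fell under siTLE3 in all 3 lines by 1.81 (T47D), 1.76 (SKBR3) and 2.31 (MDA-MB-453) on the log2 scale, and FOXA1 fell under siFOXA1 by 2.18, 2.24 and 2.48. In MDA-MB-453 TLE3 also fell under siFOXA1 (-0.79, edgeR adjusted p = 2.9e-08), so both genes were lower there. In T47D TLE3 rose under siFOXA1 (0.22, edgeR adjusted p = 0.021) and FOXA1 rose under siTLE3 (0.54, edgeR adjusted p = 9.1e-06). In the remaining groups the gene not targeted did not pass. All 5 epithelial markers had reads in every group, and the summed leukocyte markers stayed at or under 1.90 CPM in all libraries. CPM is the depth-scaled read count of a gene, given after TMM scaling (trimmed mean of M values) over the 27 libraries. Rose and fell are used only where edgeR's quasi-likelihood test gave an adjusted p under 0.05, with the adjustment over every gene tested.

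The members together took 3.19 to 3.44% of counted reads in MDA-MB-453 siNS, 3.62 to 3.82% in T47D siNS and 7.80 to 11.9% in SKBR3 siNS. The 3 values of SKBR3 siNS were 7.80%, 8.01% and 11.9%, so library 3 stood far above the others and above every other library of the series. In SKBR3 siTLE3 the shares were 6.30%, 7.54% and 8.55%, with library 1 the lowest of the line, and in SKBR3 siFOXA1 they lay close together at 7.27%, 7.45% and 7.51%. Smaller steps of the same kind were seen in T47D, where siTLE3 library 4 held 4.97% against 3.95% and 4.18%, and siFOXA1 library 3 held 5.06% against 4.22% and 4.34%. In MDA-MB-453 the shares were 3.40 to 3.52% under siTLE3 and 3.80 to 4.04% under siFOXA1, and the siFOXA1 range lay above both others.

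**Figure D1:**
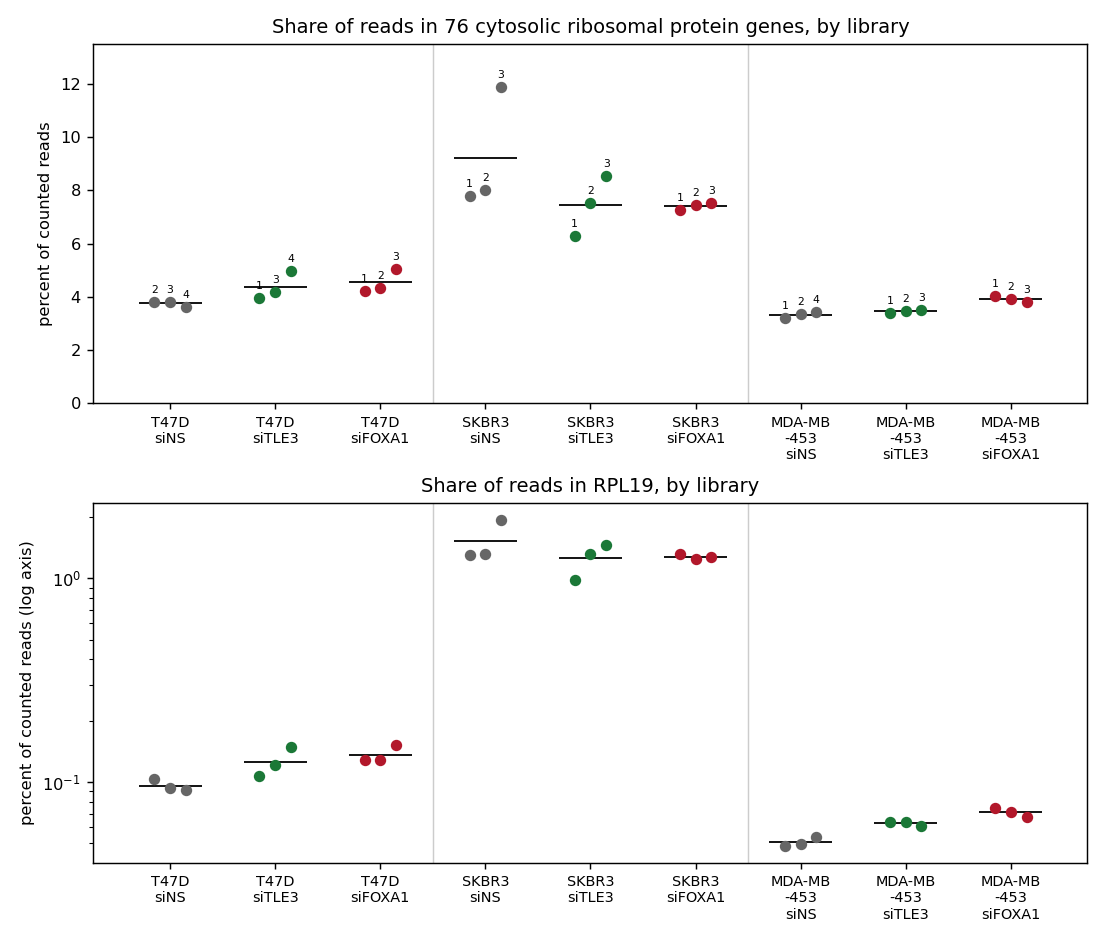
Each point is 1 library, numbered in the upper panel as in the deposited tables, and the bar is the mean of the group's 3 libraries. The upper panel gives the percent of counted reads in the 76 gene entries, where SKBR3 siNS library 3 reaches 11.9%, and the lower panel gives RPL19 alone on a log axis, at 0.979 to 1.94% in SKBR3 and at most 0.152% in the other lines.

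The step in SKBR3 siNS library 3 ran through the members as a block and reached beyond them. All 75 tested members were higher there than the mean of libraries 1 and 2, by a median of 0.76 on the log2 CPM scale (interquartile range 0.70 to 0.88). The mitochondrial ribosomal proteins, which serve another ribosome, were higher by a median of 0.57, with 70 of 74 above 0. Among the other protein-coding genes the median was 0.43 in the length quartile of the shortest genes and -0.44 in that of the longest, against 0.05 over all 11898. By GC content of the longest coding transcript it was -0.33 in the lowest and 0.44 in the highest quartile. Short genes and GC-rich genes were thus high in this library whether or not they encode ribosomal proteins, and 55 of the 76 member entries fall in the shortest quartile. The members were not GC-rich, with a median of 49.0% against 48.7% for coding genes. Across the 75 members the step had Pearson r = 0.26 with GC and -0.13 with listed length, a description across genes that share libraries. What set this library apart was not tested.

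SKBR3 siTLE3 library 1 went the other way, and unevenly. Its members were lower than the mean of libraries 2 and 3 by a median of 0.42 on the log2 scale, but 12 of 75 were higher. RPL41 (-1.33), RPL36 (-1.28), RPS19 (-1.22) and RPL8 (-1.16) were the furthest down, while RPL30 (0.51), RPS20 (0.29) and RPS23 (0.26) were up. Across the 75 members the difference went with transcript GC (Pearson r = -0.56, Spearman rho = -0.56, a description across genes that share these 3 libraries), and among the other coding genes the median was 0.35 in the lowest and -0.52 in the highest GC quartile. Most comparisons in SKBR3 are therefore also given without 1 or both of these libraries.

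**Figure D2:**
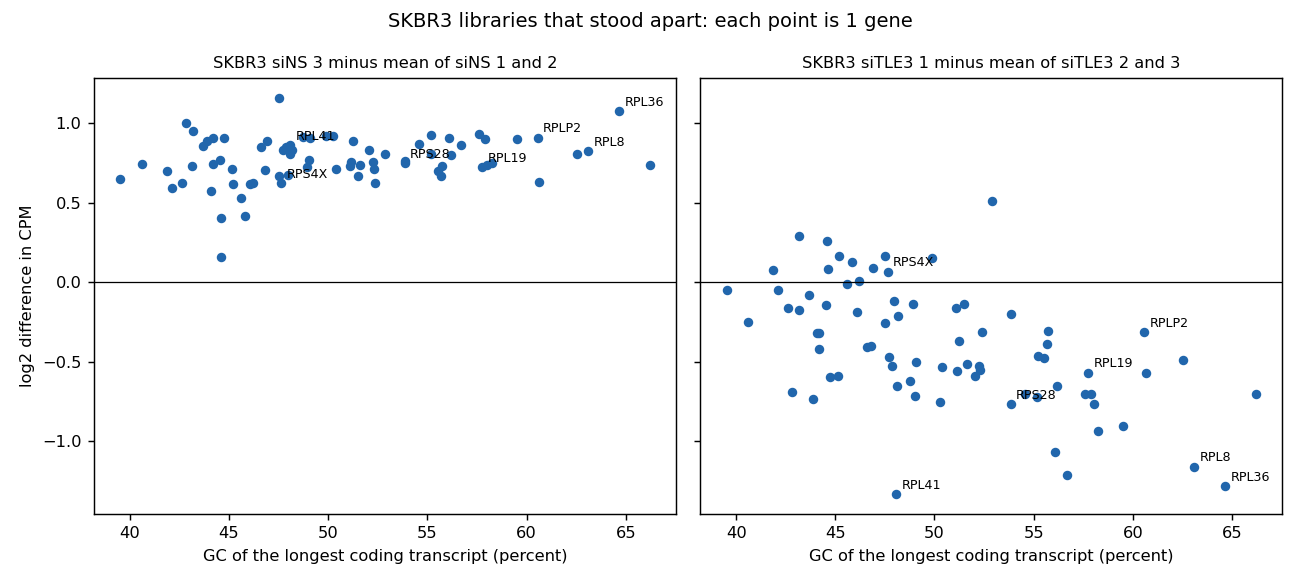
Each point is 1 of 75 members, placed by the GC content of its longest coding transcript (percent) and by the log2 difference in CPM between the library named above the panel and the mean of the group's other 2 libraries. In SKBR3 siNS library 3 all points lie above 0, with a median of 0.76, and in SKBR3 siTLE3 library 1 the points run from 0.51 to -1.33, lower at higher GC.

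Most ribosomal protein genes were higher after siFOXA1 than after siNS in T47D and MDA-MB-453. In T47D 49 of 75 members rose and 1 fell, where 26.0% of all tested genes rose and 26.8% fell. Among genes with a mean of at least 100 CPM 28.3% rose and 33.6% fell. In MDA-MB-453 56 rose and 1 fell, against 23.4% and 23.7% of all tested genes, and 32.7% and 30.5% of those with at least 100 CPM. The step was small for each gene: the median member changed by 0.28 on the log2 scale in both lines (1.22-fold), against 0.00 and -0.01 over all tested genes. Among the other coding genes with a mean of at least 100 CPM and a length in the shortest quartile, the medians were 0.03 in both lines. The 40S members rose in 19 of 29 cases in T47D and 18 of 29 in MDA-MB-453, the 60S members in 30 and 38 of 46. In bulk samples, fewer cells of a type and less RNA per cell cannot be told apart, and the values are shares of each library's RNA, not amounts per cell.

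Markers of cell type also differed in level between these groups. The summed level of the 5 epithelial markers, in reads per library total without TMM scaling, was 15841 to 16773 CPM in T47D siNS and 19677 to 22794 under siFOXA1. In MDA-MB-453 it was 3347 to 3686 and 6867 to 7174, and in SKBR3 10600 to 14980 and 10165 to 10361. The sum of the 5 fibroblast markers was lower under siFOXA1: 114 to 134 CPM in T47D siNS against 48.1 to 62.0, 162 to 189 in MDA-MB-453 siNS against 52.3 to 59.6, and 21.3 to 32.4 in SKBR3 siNS against 14.9 to 20.5. Most of it was COL1A1, a fibrillar collagen gene. DCN stayed at or under 0.208 CPM in T47D, and no reads of DCN or LUM were listed in MDA-MB-453. Under siTLE3 the epithelial sum was 14697 to 16286 in T47D and 4636 to 4730.3 in MDA-MB-453, and the fibroblast sum 78.1 to 87.5 and 116 to 127. The endothelial markers summed to at most 1.35 CPM in T47D and MDA-MB-453 and to 8.13 to 19.1 in SKBR3, of which CDH5 was the larger part. The part of these markers in the results was not tested.

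Between these lines, whose siNS controls are separate, 45 members rose in both, which is 91.8% of those risen in T47D and 80.4% of those risen in MDA-MB-453. For all genes tested in both lines the shares were 56% and 59%. As 49 and 56 of the 75 members rose in T47D and MDA-MB-453, a large overlap already follows from these counts. The shares are thus no measure of agreement gene by gene. The log2 fold changes in both lines had Pearson r = 0.69 and Spearman rho = 0.53 across the 75 members and 0.51 and 0.54 across 13414 genes, as a description across genes that share libraries. In T47D the count of risen members lay between 33 and 55 when any 1 library was left out. Without siFOXA1 library 3 it was 49, with 2 fallen (background 27.6% and 27.3%) and a median of 0.20.

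**Figure D3:**
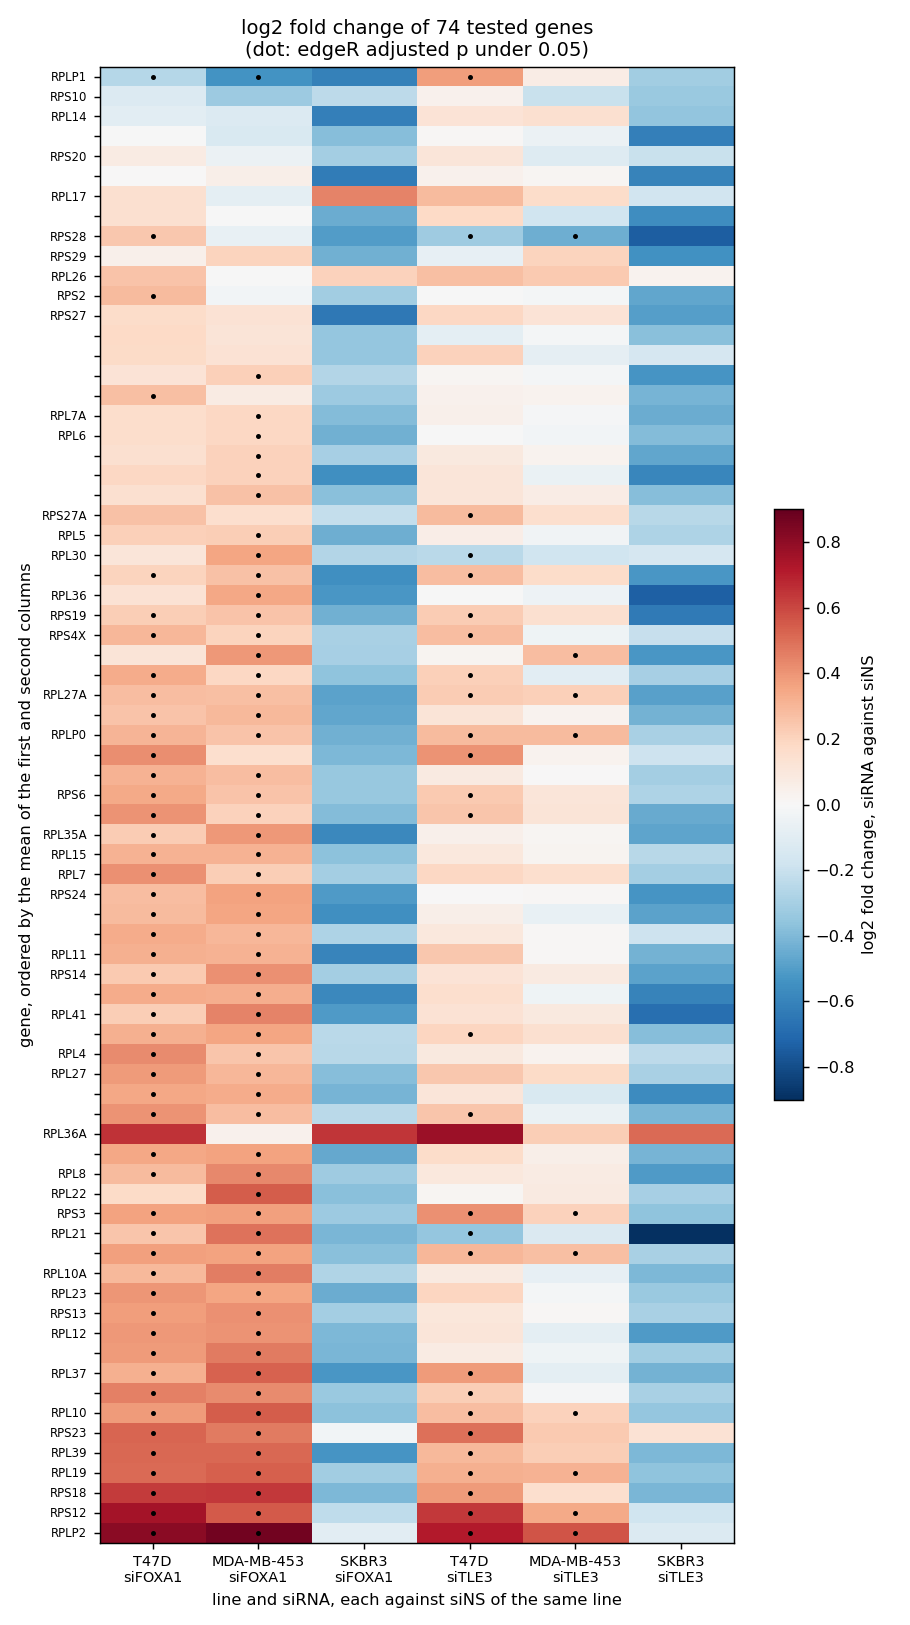
Rows are 74 of the 75 tested members, with those named in the text labelled, ordered by the mean of their log2 fold changes under siFOXA1 in T47D and MDA-MB-453, columns are line and siRNA against siNS of the same line, colour is the log2 fold change and a dot marks an edgeR adjusted p under 0.05. RPLP2 and RPS12 stand at the bottom as the largest rises under siFOXA1 and RPLP1 at the top, and the SKBR3 columns hold no dot.

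RPLP2 encodes the P2 protein of the stalk, which pairs with P1 on the P0 scaffold, and it had the largest rise of all members under siFOXA1 in both lines. In T47D its CPM was 185, 187 and 188 under siNS and 305, 305 and 380.1 under siFOXA1 (log2 fold change 0.81 ± 0.08 SE, edgeR adjusted p = 3.2e-06). In MDA-MB-453 it was 224, 227 and 249 under siNS and 443, 421 and 408 under siFOXA1 (0.86 ± 0.07 SE, edgeR adjusted p = 3.4e-09). In both lines every siFOXA1 library lay above every siNS library, and the siNS libraries were close together.

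RPLP1, the partner of RPLP2, was the only member to fall in either line. In MDA-MB-453 its CPM was 547, 638 and 627 under siNS and 446, 414 and 386 under siFOXA1 (-0.54 ± 0.07 SE, edgeR adjusted p = 7.7e-06), with no overlap between the groups. In T47D it was 447, 467 and 421 against 342, 343 and 439 (-0.25 ± 0.09 SE, edgeR adjusted p = 0.033). There the groups overlapped: siFOXA1 library 3, which was high for nearly all members, lay within the siNS range. The call was lost when any of siNS libraries 2 or 3 or siFOXA1 libraries 1 or 2 was left out (adjusted p 0.088 to 0.16). RPLP0, the scaffold of the stalk, rose in both lines (0.31 ± 0.09 in T47D and 0.26 ± 0.08 in MDA-MB-453, edgeR adjusted p = 0.014 and 0.0092), and in T47D the call was lost without siNS library 4 (adjusted p = 0.085).

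The ratio of RPLP1 to RPLP2 reads within a library does not depend on library scaling and was looked at after these values were seen. In T47D it was 2.41, 2.49 and 2.24 under siNS, 1.86 to 1.95 under siTLE3 and 1.12 to 1.16 under siFOXA1. In MDA-MB-453 it was 2.44, 2.82 and 2.51 under siNS, 1.78 to 1.91 under siTLE3 and 0.948 to 1.01 under siFOXA1. In SKBR3 it was 1.11, 1.07 and 1.03 under siNS, 0.861 to 0.975 under siTLE3 and 0.727 to 0.753 under siFOXA1. In all 3 lines the groups did not overlap, the order was siNS, siTLE3, siFOXA1 from high to low, and SKBR3 siNS library 3 lay with the other siNS libraries. The ratio in SKBR3 siNS was lower than in the siNS cells of the other lines.

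**Figure D4:**
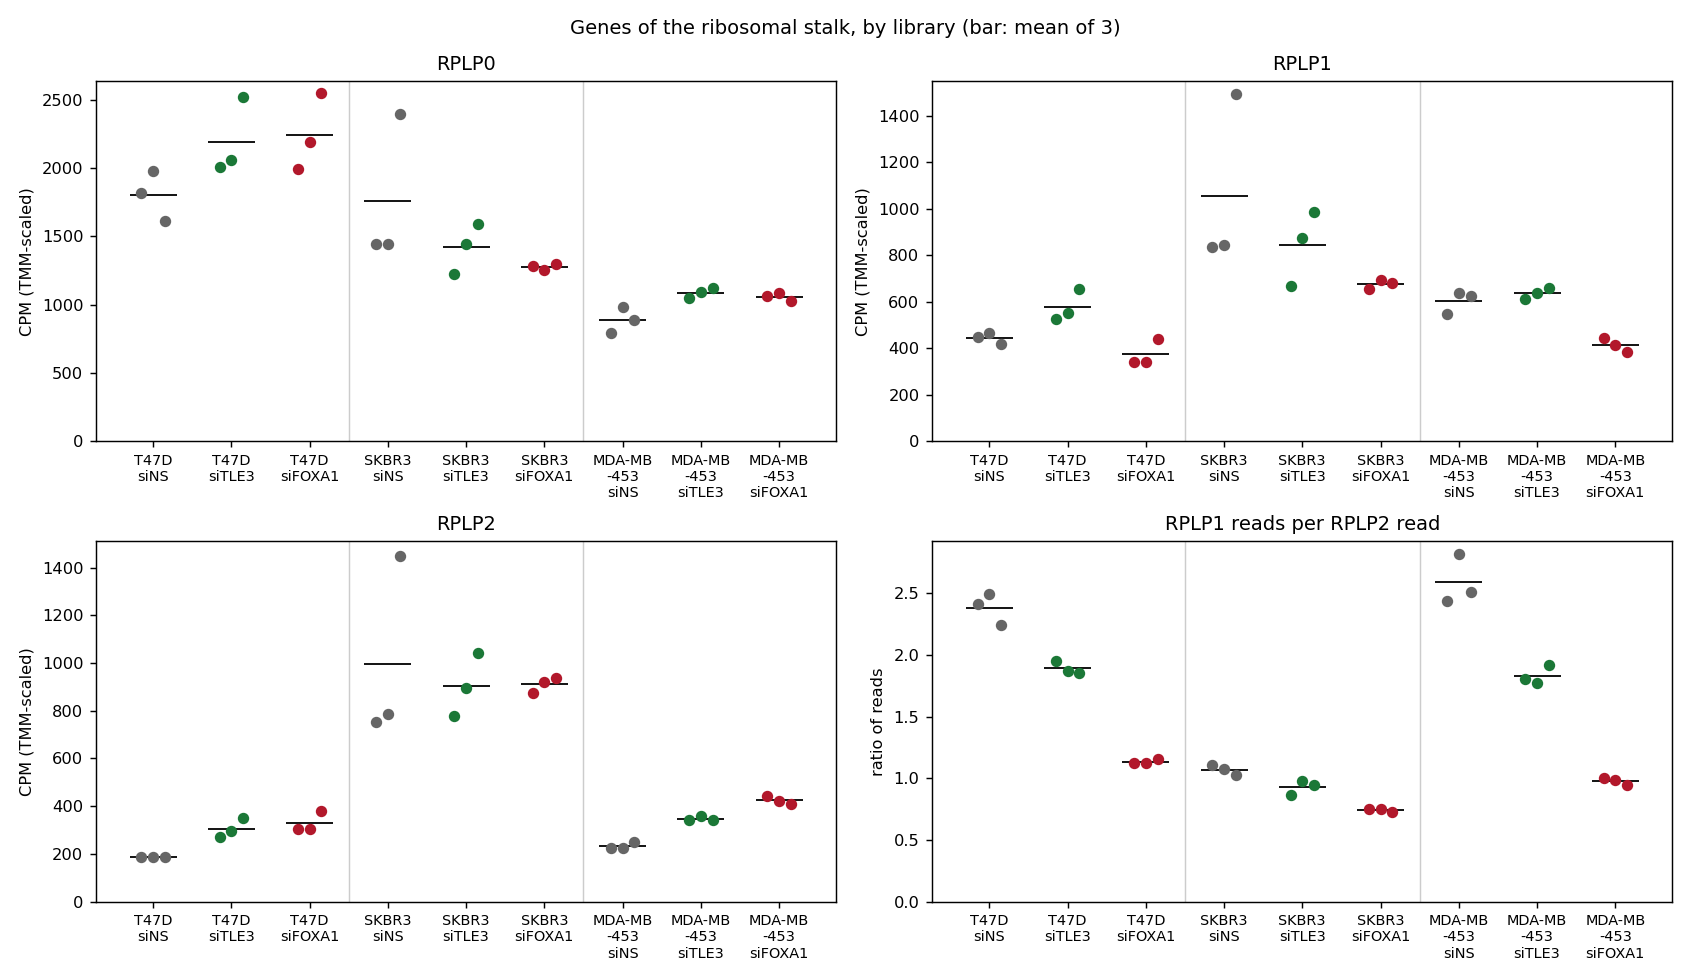
Points are the 27 libraries by group and bars the means of 3, with CPM of RPLP0, RPLP1 and RPLP2 in the first 3 panels and the reads of RPLP1 per read of RPLP2 in the last. The ratio falls from 2.24 to 2.49 under siNS to 1.12 to 1.16 under siFOXA1 in T47D, and SKBR3 siNS library 3, far up in the first 3 panels, lies in line in the last at 1.03.

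Among the 40S members, RPS12 and RPS18 rose most. RPS12, a protein of the small subunit's beak, had a CPM of 202, 199 and 186 in T47D siNS and 301, 310.5 and 381 under siFOXA1 (0.75 ± 0.09 SE, edgeR adjusted p = 8.2e-06), and 0.55 was its log2 fold change in MDA-MB-453 (adjusted p = 1.6e-06). RPS18, on the head of the small subunit, rose by 0.63 ± 0.09 and 0.64 ± 0.07 (SE) on the log2 scale, from 392, 432 and 478 CPM to 684, 686 and 649 in MDA-MB-453. No library overlapped between the groups for either gene. RPS6, the S6 kinase substrate, rose by 0.34 and 0.26, and RPS4X, which is encoded on the X chromosome, by 0.30 and 0.20 (in MDA-MB-453 the RPS4X call was lost without any one of siNS library 1 or the siFOXA1 libraries). RPS27A, made as a fusion with ubiquitin, did not pass in either line (adjusted p = 0.055 and 0.076), nor did RPS27 (adjusted p = 0.1 and 0.23).

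Among the 60S members, RPL39, a small protein that lines the exit tunnel, rose by 0.52 ± 0.08 in T47D and 0.52 ± 0.08 in MDA-MB-453 (SE; edgeR adjusted p = 0.00018 and 5.3e-05). RPL22, which also binds its own paralog's mRNA, rose in MDA-MB-453, where its CPM was 222, 232 and 236 under siNS and 343, 337 and 322 under siFOXA1 (0.54 ± 0.06 SE, edgeR adjusted p = 7.4e-07), and did not pass in T47D (0.17, adjusted p = 0.11). RPL10, which closes the assembly of the 60S subunit, rose in MDA-MB-453 by nearly as much as RPL22 (0.54 ± 0.07). Of the MDM2-binding pair, RPL11 rose in both lines (0.32 and 0.32), and RPL5 passed in MDA-MB-453 (0.22, adjusted p = 0.021; lost without siNS library 1 or siFOXA1 libraries 1 or 2) but not in T47D (adjusted p = 0.067). The summed reads of 40S over 60S members were 0.50 in each library of MDA-MB-453 siNS, 0.492 to 0.501 under siTLE3 and 0.460 to 0.463 under siFOXA1, whereas in T47D they were 0.474 to 0.484 under siNS and 0.474 to 0.478 under siFOXA1.

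In SKBR3 no member passed under siFOXA1 with all libraries, where 10.4% of all tested genes rose and 8.75% fell in edgeR. Among genes with at least 100 CPM 9.71% rose and 9.9% fell. At an unadjusted p under 0.05 there were 25 members lower and 1 higher, and DESeq2 called 7 lower. The median log2 fold change was -0.38, and 48 members had every siFOXA1 library below every siNS library. Shares of all genes are not given for the unadjusted, DESeq2 and non-overlap counts. These counts are therefore not read as a result about the members. Without siNS library 3, 42 members fell and 2 rose, where 22.4% of all genes fell and 22.7% rose, and the median was -0.10. The count and the size of the median thus rest on siNS library 3.

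Without that library RPLP1 fell and RPLP2 rose in SKBR3. RPLP1 was at 836, 842 and 1491 CPM in siNS libraries 1, 2 and 3 and at 657, 692 and 682 under siFOXA1, and without library 3 it fell by 0.31 (edgeR adjusted p = 2.4e-07). RPLP2 was at 755, 786 and 1447 and 876, 919.9 and 938, and without library 3 it rose by 0.25 (adjusted p = 1.2e-05). RPL14 (-0.35), RPS27 (-0.30) and RPL11 (-0.29) made up the 4 largest falls together with RPLP1, and the other rise, RPL36A (0.80), rests on few reads at 1.60, 2.01 and 2.56 CPM in siNS.

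Under siTLE3, in T47D 24 of 75 rose and 3 fell, where 25.3% of all tested genes rose and 26.6% fell. Among genes with at least 100 CPM 19.1% rose and 45% fell. The median member stood at 0.13 on the log2 scale and the median of all tested genes at 0.01. Without siTLE3 library 4, the one with the high ribosomal share, 15 rose, 5 fell (background 24.3% and 27.5%) and the median was 0.02, and without siTLE3 library 1 there were 42 risen and 2 fallen (median 0.23, background 24.2% and 24.3%). Leaving out siNS library 4 gave 12 risen and 2 fallen (background 21.6% and 23.9%). In MDA-MB-453 9 rose and 1 fell, against 15.7% and 16.3% of all genes and 22.6% and 24.2% of those with at least 100 CPM. The median was 0.03. Without MDA-MB-453 siNS library 4, 17 rose and 1 fell (background 14.1% and 12.3%), and without siNS library 1 or 2, 3 fell.

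RPLP2 and RPS12 had the largest rises under siTLE3 in T47D and MDA-MB-453; the siTLE3 and siFOXA1 comparisons share their siNS libraries. RPLP2 was at 269.7, 296 and 352 CPM in T47D siTLE3 (0.71 ± 0.08 SE, edgeR adjusted p = 7.6e-06) and at 341, 359 and 344 in MDA-MB-453 siTLE3 (0.57 ± 0.06, adjusted p = 1.4e-05). RPS12 rose by 0.64 ± 0.08 and 0.34 ± 0.07. All siTLE3 libraries of both lines lay above the siNS libraries for both genes. RPLP1 rose under siTLE3 in T47D (0.38 ± 0.08 SE, edgeR adjusted p = 0.0013) and was at 614, 638 and 659 CPM in MDA-MB-453, where it did not pass. RPS3 and RPS23 completed the 4 largest rises in T47D (0.41 and 0.50), and RPL19 (0.31) and RPLP0 (0.28) in MDA-MB-453.

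RPS28 fell in T47D and MDA-MB-453, and RPL21 in T47D. RPS28, a small protein near the mRNA exit of the 40S subunit, was at 354, 365 and 408 CPM in MDA-MB-453 siNS and 271, 275 and 289.5 under siTLE3 (-0.44 ± 0.07 SE, edgeR adjusted p = 0.00021), with no overlap. In T47D it was 289, 257 and 269 against 176, 212 and 264 (-0.32 ± 0.11 SE, edgeR adjusted p = 0.023), where siTLE3 library 4 overlapped the siNS range and the call was lost without siNS library 2 or 4 or siTLE3 library 1 or 3 (adjusted p 0.055 to 0.11). RPL21, a 60S protein, was at 248, 256 and 233 CPM in T47D siNS and 164, 187 and 227 under siTLE3 (-0.35 ± 0.09 SE, edgeR adjusted p = 0.0068). In MDA-MB-453 it did not pass (-0.13 ± 0.06, edgeR adjusted p = 0.12). RPL30, also of the 60S subunit, was the third to fall in T47D (-0.24 ± 0.07, adjusted p = 0.014; lost without siNS library 3 or siTLE3 library 3, adjusted p = 0.073 and 0.065).

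In SKBR3 no member passed under siTLE3, where 3.67% of all tested genes rose and 1.99% fell in edgeR. Among genes with at least 100 CPM 2.9% rose and 2.02% fell. At an unadjusted p under 0.05 in edgeR, 4 members were lower and 0 higher, and DESeq2 called 1 lower. Shares of all genes are not given for the unadjusted and DESeq2 counts, which are not read as a result about the members. The median was -0.39 with all libraries and 0.00 without siTLE3 library 1 and siNS library 3. Without these libraries RPLP2 rose (0.32, edgeR adjusted p = 0.0034), and RPL21 (-0.47, adjusted p = 0.00045) and RPS28 (-0.25, adjusted p = 0.007) fell, and these 3 were the only members called (background 14.6% higher and 14.1% lower). The values of RPL21 in SKBR3 were 596, 614 and 1093 CPM under siNS and 304, 398 and 483 under siTLE3.

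Set directly against siFOXA1, siTLE3 left RPL21 lower in all 3 lines and RPLP1 higher in T47D and MDA-MB-453. RPL21 differed by -0.58 ± 0.12 in T47D, -0.51 ± 0.15 in SKBR3 and -0.60 ± 0.06 in MDA-MB-453 (SE; edgeR adjusted p = 0.0019, 0.045 and 7.9e-09). In SKBR3 the siTLE3 libraries all lay below the siFOXA1 libraries, at 504, 610.0 and 583 CPM, but the call was lost without siTLE3 library 2 or any siFOXA1 library (adjusted p 0.086 to 0.18). RPLP1 differed by 0.65 ± 0.11 in T47D and 0.62 ± 0.05 in MDA-MB-453 (SE; edgeR adjusted p = 0.0005 and 2.3e-09).

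By count, the direct comparison differed most in MDA-MB-453, where 49 members were lower and 2 higher under siTLE3 (background 26.1% and 27%). Furthest down were RPL37 (-0.60), RPL21 (-0.60), RPL30 (-0.52) and RPL10A (-0.51), and RPL14 (0.29) was the other higher one. In T47D 5 were lower and 1 higher (21.8% and 22.5% of all genes). The 5 were RPL21, RPS28, RPL30, RPL4 and RPL12, of which RPL4 lost its call without siTLE3 library 1 or 3 or siFOXA1 library 2 or 3. Without siTLE3 library 4, 28 were lower and 1 higher (background 20.8% and 20.5%), and without any one of siTLE3 library 1 or 3 or siFOXA1 library 2 or 3, 3 were lower. In SKBR3 RPL21 was the only member called (9.24% of all genes lower and 10.7% higher). At an unadjusted p under 0.05 in edgeR, 3 members were higher there, and DESeq2 called 0 higher. These counts carry no shares of all genes and are not read as a result about the members. Without siTLE3 library 1, 30 members were higher, led by RPLP1 (0.46) and RPL14 (0.38), and RPL21 was lower (-0.36; background 19.3% higher and 19.4% lower). Among genes with at least 100 CPM the backgrounds, with all libraries, were 37.0% lower and 34.5% higher in MDA-MB-453, 33.9% lower and 17.8% higher in T47D, 11.0% lower and 12.4% higher in SKBR3.

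The siFOXA1 effect differed between the lines for 57 of 75 members in an interaction test over the 18 siNS and siFOXA1 libraries, where 33.8% of all tested genes and 48.4% of those with at least 100 CPM differed. The smallest p-values belonged to RPS12 (edgeR adjusted p = 0.000616), RPS18 (0.000678) and RPL22 (0.000909), and the count was also 57 without SKBR3 siNS library 3. The siTLE3 effect differed for 2 members, RPS12 (edgeR adjusted p = 0.0204) and RPLP2 (0.0442), where 12.1% of all tested genes and 14.3% of those with at least 100 CPM differed. No run of this interaction without SKBR3 siTLE3 library 1 and siNS library 3 is given. In SKBR3 the log2 fold change of RPLP2 was -0.12 with all libraries and 0.32 without them. For RPS12 it was -0.18 and 0.10.

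Control cells of the lines were compared to see how far the members differ without silencing. SKBR3 siNS had 60 members higher than T47D and 0 lower in edgeR (background 32.5% and 34.7%), with a median log2 difference of 1.36 (2.56-fold) against -0.02 over all genes. Against MDA-MB-453, 66 were higher and 0 lower (background 33.5% and 32.9%), with a median of 1.54. At an unadjusted p under 0.05 in edgeR, 0 members were lower in SKBR3 in either comparison, and DESeq2 called 0 lower. Neither count has the share of all genes beside it, so neither is read as a result about the members. Without SKBR3 siNS library 3, 62 were higher and 7 lower than in T47D (background 38.1% and 40%). With any 1 library left out, 64 to 67 were higher and 0 to 2 lower than in MDA-MB-453. The medians of 1.36 and 1.54 include library 3 and are not given without it. All 75 tested members were higher there than the mean of siNS libraries 1 and 2, by a median of 0.76. Among other short coding genes of at least 100 CPM the medians were 0.25 and 0.29. Of all genes of that level 43.2% were higher and 27% lower than in T47D, and 43.4% and 27.1% than in MDA-MB-453. MDA-MB-453 had 22 members higher and 37 lower than T47D (background 37.5% and 38.9%, and 43.1% and 42.0% at 100 CPM or more), with a median of -0.19.

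RPL19, a 60S protein gene, led the SKBR3 difference. Its CPM was 14254, 14383 and 23659 in SKBR3 siNS, 1003, 900.1 and 877 in T47D siNS and 446, 470.0 and 527 in MDA-MB-453 siNS, which is a log2 difference of 4.22 ± 0.22 from T47D and 5.16 ± 0.23 from MDA-MB-453 (SE; edgeR adjusted p = 1.2e-06 and 1e-07). It alone took 1.30 to 1.94% of counted reads in SKBR3 siNS, and the groups were far apart. RPL19 lies on chromosome 17 at 37356536 to 37360980 (hg19), 483.2 kb from ERBB2, whose amplification SKBR3 is known for. ERBB2 itself stood 5.64 ± 0.11 above T47D on the log2 scale. With all libraries, RPL23, 834.1 kb from ERBB2 on the same side, did not differ detectably from T47D (-0.13 ± 0.16, edgeR adjusted p = 0.49). Its CPM was 475, 483 and 714 in SKBR3 and 666, 599 and 558 in T47D. Without the SKBR3 siNS library at 714 CPM, RPL23 was lower in SKBR3 than in T47D (-0.33, edgeR adjusted p = 0.00019). RPL19 stayed higher in that run (3.96). Against MDA-MB-453, at 295, 338 and 362 CPM, RPL23 was higher in SKBR3 with all libraries (0.73 ± 0.17 SE, edgeR adjusted p = 0.0038). Copy number was not measured here.

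RPL7, of the 60S subunit, was next, at 5517, 5599 and 8738 CPM in SKBR3 and 871, 951 and 821 in T47D (2.90 ± 0.19 SE). RPLP2 (2.40) was also among the 4 largest differences from T47D, and RPL27A (3.08) and RPS13 (2.97) were among those from MDA-MB-453. With all libraries, RPLP0 did not differ detectably from T47D (edgeR adjusted p = 0.85). It was at 1443, 1442 and 2395 CPM in SKBR3 and 1816, 1978 and 1617 in T47D. Without SKBR3 siNS library 3, RPLP0 was lower in SKBR3 than in T47D (-0.31, edgeR adjusted p = 0.00042). With all libraries it was higher in SKBR3 than in MDA-MB-453 (0.97 ± 0.20 SE, edgeR adjusted p = 0.0019), where its CPM was 790.3, 984 and 887.

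RPL10 set MDA-MB-453 apart. Its CPM was 2300.3, 2323 and 2502 in MDA-MB-453 siNS and 398, 376 and 386 in T47D siNS (2.64 ± 0.07 SE, edgeR adjusted p = 4e-13), while 37 of the 75 members were lower there. RPS4X (0.71), RPL4 (0.67) and the sparsely counted RPL36A (1.39) were also among the 4 largest rises. RPL35A (-1.58), RPL27 (-1.57), RPS14 (-1.17) and RPS24 (-1.16) were the 4 furthest below T47D. Per length (reads per kilobase of listed gene length, scaled by depth like FPKM), RPL10 was the second of the 76 entries in MDA-MB-453 siNS at 1079.8 ± 26.1 (SD, n = 3), after RPS2 at 1296 ± 76.6. In T47D siNS the highest was RPL7A at 1299 ± 61.9 and in SKBR3 siNS RPL19 at 11666 ± 2795, above RPL7 at 3787 ± 789.

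**Figure D5:**
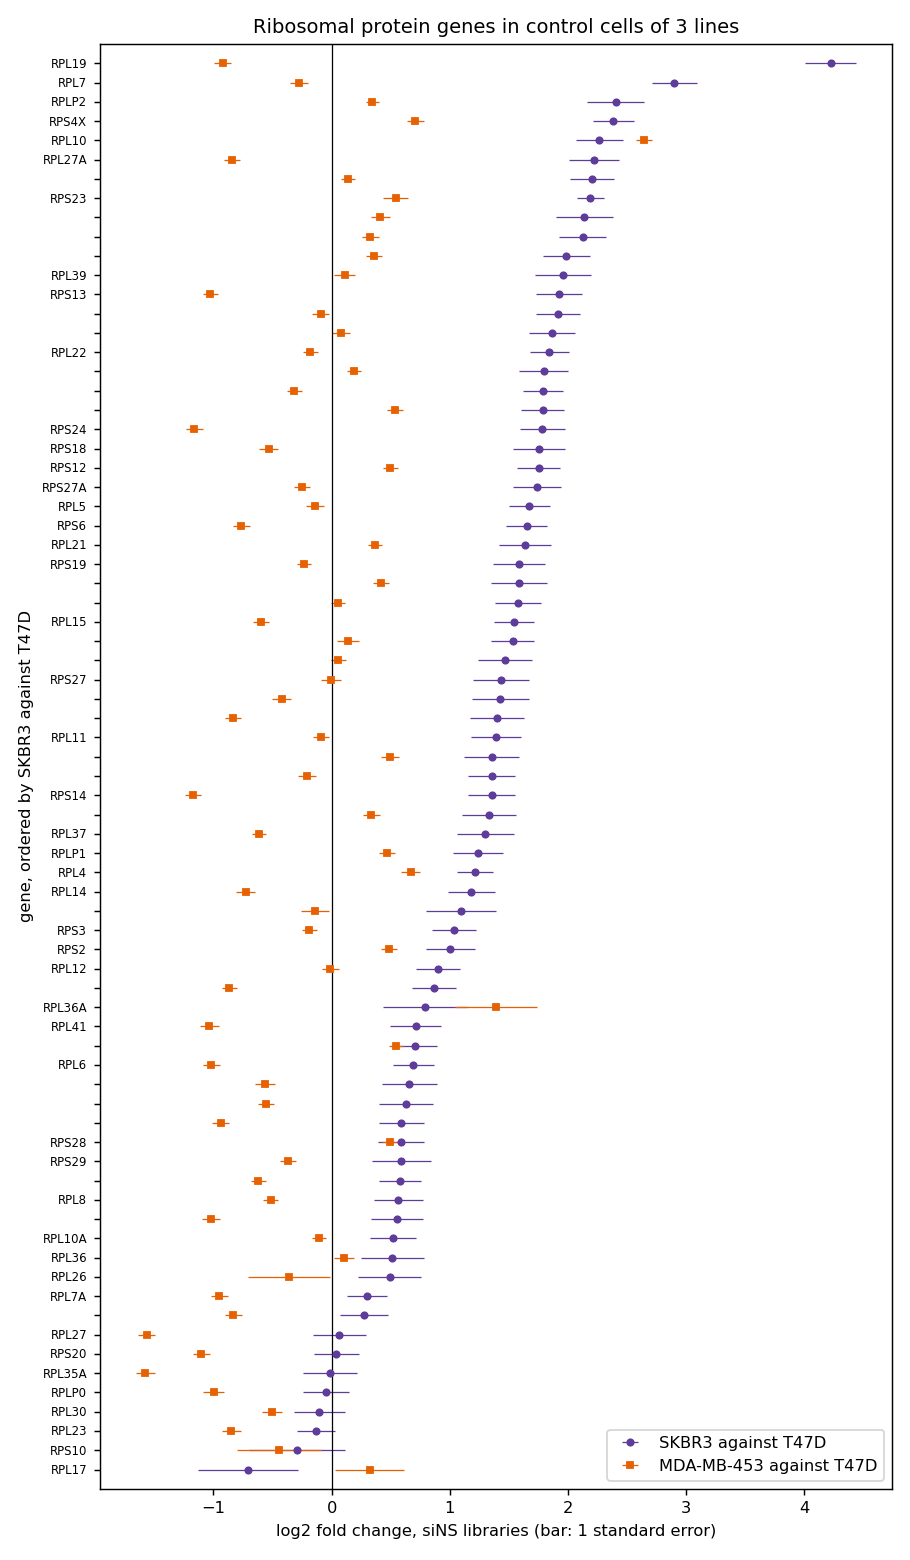
Rows are 74 of the 75 tested members in siNS libraries, with those named in the text labelled, ordered by the log2 fold change of SKBR3 against T47D (circles), with MDA-MB-453 against T47D as squares, and bars of 1 standard error. RPL19 at 4.22 and RPL7 at 2.90 lie furthest right for SKBR3, and RPL10 at 2.64 for MDA-MB-453.

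Some values of the members rest on few reads. RPL36A, RPL26, RPL17, RPS10 and the second RPL26 entry had the lowest levels per length in all 3 lines, at or under 2.79 in siNS. The median library held 56 reads for RPL26 and 2 for the entry that overlaps it on the same strand. RPL21 has 30 listed pseudogenes, which held a median of 158 reads per library against 7094 for the gene, while RPS2 has 11 with 6223 against 37320. For RPS2 the split of reads between the gene and its copies is uncertain, and the counting of multi-mapped reads is not given in the sources used here.

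Among the paralogs outside the rule, RPS27L, a paralog of RPS27 known as a p53 target, rose in all 6 comparisons with siNS. Both siRNAs of a line are set against the same siNS libraries, so these comparisons are not separate. Its CPM in T47D was 9.95, 11.0 and 9.61 under siNS, 29.2, 36.5 and 38.8 under siTLE3 and 42.6, 47.1 and 56.1 under siFOXA1 (log2 fold changes 1.77 ± 0.11 and 2.25 ± 0.11 SE, edgeR adjusted p = 1.6e-08 and 2.9e-09). In SKBR3 it was 4.16, 4.66 and 5.99, 16.997, 15.6 and 15.957 and 17.5, 19.4 and 19.7 in the same order (1.73 ± 0.19 and 1.96 ± 0.16, adjusted p = 0.0035 and 0.00031). In MDA-MB-453 the log2 fold changes were 1.83 ± 0.12 and 1.29 ± 0.13 (adjusted p = 1.6e-07 and 1e-07). No siNS library of any line reached a silenced one, the SKBR3 siNS library 3 included.

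RPS27 itself was not called in these 6 comparisons, and the reads of RPS27L per read of RPS27 in SKBR3 were 0.00328 to 0.00473 under siNS, 0.0145 to 0.0263 under siTLE3 and 0.0221 to 0.0251 under siFOXA1. RPL39L fell under siFOXA1 in T47D (-0.42 ± 0.12 SE, edgeR adjusted p = 0.0098; 0.051 without siFOXA1 library 1) while RPL39 rose. RPL7L1 fell under siFOXA1 in MDA-MB-453 (-0.21). RPL22L1, RPL26L1 and RPL36AL did not pass against siNS in any line. The reads of RPL22L1 per read of RPL22 were lower under siFOXA1 in MDA-MB-453, at 0.0966 to 0.105 under siNS and 0.0525 to 0.0614 under siFOXA1. In SKBR3 they were higher, at 0.0316 to 0.0352 under siNS and 0.0396 to 0.0441 under siFOXA1. In T47D the ranges overlapped (0.119 to 0.123 and 0.111 to 0.124). Of the ribosomal proteins named otherwise, RPSA and FAU did not pass in any comparison with siNS.

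Other mRNAs known for the TOP motif were fixed as a list of 26 genes, chosen with earlier results of these data known, of which 25 were tested. Under siFOXA1 12 rose and 1 fell in T47D (median 0.20), and 12 rose and 0 fell in MDA-MB-453 (median 0.18, edgeR), where 26.0% and 26.8% of all tested genes rose and fell in T47D and 23.4% and 23.7% in MDA-MB-453. NAP1L1, a histone chaperone, rose most in both (0.79 and 0.74), and it also rose in SKBR3 (0.37), where it was the only gene of the list called. The initiation factor genes EIF3D (0.62 and 0.53) and EIF2S3 (0.55 and 0.45) followed in T47D and MDA-MB-453. Under siTLE3 the list split, with 6 risen and 5 fallen in each of these lines (background 25.3% and 26.6% in T47D and 15.7% and 16.3% in MDA-MB-453), NAP1L1 up (0.54 and 0.57) and the eIF3 subunit gene EIF3H down (-0.41 and -0.40).

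Of the ribosome biogenesis factors, 17 of 64 rose and 13 fell under siFOXA1 in T47D (median 0.00), and 14 of 65 rose and 14 fell in MDA-MB-453 (median 0.02). The risen shares lay near those of all tested genes just given. Under siTLE3 in T47D 6 of 64 rose and 29 fell (median -0.14, background 25.3% and 26.6%), with BYSL, a 40S assembly factor, at -1.04 and the nucleolar RNA helicase DDX21 at -0.71, while in MDA-MB-453 13 of 65 rose and 4 fell (background 15.7% and 16.3%). DKC1, the pseudouridine synthase of rRNA, rose in all 6 comparisons with siNS, from 0.57 in MDA-MB-453 siFOXA1 to 0.85 in SKBR3 siFOXA1. Here too both siRNAs of a line share their siNS libraries. Against the same backgrounds, of 74 mitochondrial ribosomal protein genes 11 rose and 19 fell under siFOXA1 in T47D and 7 rose and 19 fell in MDA-MB-453, and under siTLE3 in T47D 3 rose and 38 fell (median -0.20).

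Of the regulators, MYC rose under siFOXA1 in all 3 lines, by 0.53 ± 0.07 in T47D, 0.90 ± 0.10 in SKBR3 and 1.27 ± 0.07 in MDA-MB-453 on the log2 scale (SE; edgeR adjusted p = 1.9e-05, 0.0011 and 5.2e-11), and it did not pass under siTLE3 in any of the lines. Its CPM was 369, 377 and 461 in SKBR3 siNS, 61.3, 58.3 and 61.5 in T47D siNS and 56.1, 67.6 and 62.0 in MDA-MB-453 siNS. DDIT4, an inhibitor of mTOR, rose under siFOXA1 by 0.76, 1.62 and 2.09 in the same order. Of the whole list of MYC and mTOR regulators, 5 of 27 rose and 8 fell under siFOXA1 in T47D, 6 of 28 rose and 0 fell in SKBR3 (edgeR), and 12 of 29 rose and 6 fell in MDA-MB-453, where the backgrounds were 26.0% and 26.8%, 10.4% and 8.75% and 23.4% and 23.7%. Whether the members followed any of these genes was not tested.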

How the data were processed

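RNA-seq was made from 27 samples of 3 cell lines. The authors deposited 6 tables, each with raw read counts per gene and other values, of which the listed gene length was used, per the file headers. STAR 2.5, HTSeq 0.6.1, DESeq2 and hg19 are named in the submitters' processing notes, without roles. The 9 siNS columns that stand in 2 tables each were identical and used once, and the 36 columns of FPKM values were not used here. Columns of 3 groups (siNS of T47D and MDA-MB-453, siTLE3 of T47D) carry other numbers than the labels, so they were tied to their group only and are called by the column's number.

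Counts as deposited were tested with edgeR 4.0.16 (R 4.3.3; filterByExpr, TMM, quasi-likelihood F test, Benjamini-Hochberg over all tested genes, threshold 0.05), on the 6 libraries of each comparison, or 18 for an interaction across lines, after the procedure was tested on simulated data. Alternatives were RLE scaling, TMM without the members, library totals only, no low-count filter, DESeq2 1.42.0, all 9 libraries of a line in 1 fit, a replicate block and each library left out. Levels between genes were compared per kilobase of listed length, scaled by depth. Depth was 15968223 to 26208135 counted reads per library.

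Named genes are up to 4 members with the largest called rise and fall per comparison, up to 6 for an interaction, up to 4 from each list, and the stalk, MDM2-binding, RPS6, RPS27A, RPS4X and paralog genes in every line. The members and lists were chosen with earlier results of these data known. Of the genes tested, 1 member and 1 related gene are not reported by name here, and the member is left out of the plots that label genes.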

Additional observations from a re-analysis of the deposited data

Results flagged for a closer look

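The siFOXA1 effect differed between T47D, SKBR3 and MDA-MB-453 for 57 of 75 ribosomal protein genes in edgeR's test of the interaction of siRNA and line, which is why it is listed here. The adjusted p-values were 0.000616 for RPS12, 0.000678 for RPS18, 0.000909 for RPL22, 0.00132 for RPL39, 0.00136 for RPL23 and 0.00147 for RPL10. The siTLE3 effect differed for 2 genes by the same test, with edgeR adjusted p-values of 0.0204 for RPS12 and 0.0442 for RPLP2. The shares of all tested genes that differed are given with this test in the Results. For siFOXA1 the share of the members lay above that of all tested genes, and for siTLE3 it lay below.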

How the results depend on the processing

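No called gene changed direction under any alternative run. The counts that follow carry no shares over all genes and show only how far they depend on the processing. With each library left out in turn, risen members ranged from 12 to 42 (T47D siTLE3), 0 to 2 (SKBR3 siFOXA1), 6 to 17 (MDA-MB-453 siTLE3), 1 to 2 (T47D siTLE3 against siFOXA1) and 0 to 30 (SKBR3 siTLE3 against siFOXA1). Fallen members ranged from 1 to 5 (T47D siTLE3), 0 to 2 (T47D siFOXA1), 0 to 42 (SKBR3 siFOXA1), 1 to 3 (MDA-MB-453 siTLE3 and siFOXA1), 3 to 28 (T47D siTLE3 against siFOXA1), 0 to 1 (SKBR3 siTLE3 against siFOXA1), 0 to 7 (SKBR3 against T47D siNS) and 0 to 2 (SKBR3 against MDA-MB-453 siNS). With library totals only, 14 rose and 2 fell in MDA-MB-453 siTLE3, and the fallen were 1 in T47D siTLE3, 3 in MDA-MB-453 siFOXA1, 1 for SKBR3 against T47D and 3 for SKBR3 against MDA-MB-453. DESeq2 gave 1 fallen in SKBR3 siTLE3, 7 in SKBR3 siFOXA1 and 8 in T47D siTLE3 against siFOXA1, and 4 members for the siTLE3 interaction, where RLE scaling gave 1. Without the low-count filter 1 fell in SKBR3 siTLE3 and 2 in SKBR3 siFOXA1. With 9 libraries in 1 fit the fallen were 1 in each of these, 2 in MDA-MB-453 siTLE3, 8 in T47D siTLE3 against siFOXA1 and 0 in SKBR3 siTLE3 against siFOXA1. Without SKBR3 siTLE3 library 1 and siNS library 3, 1 rose and 2 fell in SKBR3 siTLE3. The cause was not tested.

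Same-numbered SKBR3 siNS and siTLE3 libraries deviated together with r = 0.492, -0.117 and 0.610, against -0.568 to 0.413 for libraries of other numbers. With 3 libraries in each group, this check cannot decide whether the numbers pair the samples. With the replicate number as a block, 31 members fell in SKBR3 siTLE3 and 0 rose, where 11.2% of all tested genes fell and 13.1% rose.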
